A study of Mus musculus with 6 samples.

Results

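The 9 genes described here encode Kmt2a and the proteins that an MLL fusion works with: menin (Men1), LEDGF (Psip1), ENL (Mllt1), AF9 (Mllt3), AF10 (Mllt10), the histone methyltransferase Dot1l and the elongation scaffolds AF4 (Aff1) and AFF4 (Aff4). They were chosen by gene symbol from the 46983 genes of the deposited count table, each matched a single row, and all 9 passed the filter on low counts. In Alox5-/- leukemia cells Kmt2a, Men1, Dot1l and Mllt1 were lower than in WT cells, Aff1 and Aff4 were higher, and Psip1, Mllt3 and Mllt10 were not called. The changes were small: 0 of the 9 reached 1.5-fold, and the one with the greatest size, Mllt1, was 1.35-fold lower. Of all tested genes 11.5% were called with a change of at least 1.5-fold, and 0 of 9 is near that share.

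Kmt2a, also called MLL, methylates histone H3 at lysine 4. In MLL-rearranged leukemia its amino-terminal part is fused to a partner, often AF9, and that part still binds menin and LEDGF, which tether the fusion to chromatin. AF9 and its paralog ENL read acylated histones and carry a carboxy-terminal domain that binds either DOT1L, which methylates histone H3 at lysine 79 with AF10 as a cofactor, or AF4 and AFF4, the scaffolds of the super elongation complex that brings in the kinase P-TEFb. Through these contacts MLL fusions keep HOXA and MEIS1 genes active, and menin and DOT1L are drug targets in this disease.

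Messenger RNA was sequenced from 2 groups of 3 libraries. The Alox5-/- group came from C57BL/6J mice of genotype Alox5-/-, with the gene of 5-lipoxygenase disrupted, and the WT group from C57BL/6J mice. In both groups, lineage-negative Sca-1+ c-Kit+ marrow cells were sorted, infected with a retrovirus that carries MLL-AF9, marked by GFP and passed through irradiated C57BL/6J recipients, and no library was treated. The sources used here do not give donor age or the animals behind each library, and because the labels only say that replicates were biological, p-values measure the spread between these libraries. All cells of both groups carry the fusion, so its own effect cannot be read from this comparison.

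Gene counts in a library numbered 28985597 to 38695948. Alox5 was lower but present in Alox5-/- libraries, at 64.2 ± 1.87 CPM in Alox5-/- cells against 105 ± 1.87 CPM in WT cells (SD, n = 3 each; edgeR adjusted p = 7.65e-10), where CPM are read counts relative to library size after TMM adjustment. The allele's altered exons are not given, so this is a partial check of the labels. Of the stem and progenitor markers Flt3, a receptor kinase, rose by 0.91 in log2, Cd34 by 0.36 and the leukocyte gene Ptprc by 0.09. Kit fell and averaged 136 ± 2.73 CPM in Alox5-/- cells against 160 ± 3.09 CPM in WT cells, while Ly6a, which encodes Sca-1, was not called (edgeR adjusted p = 0.0945), at 0.763 ± 0.158 CPM in Alox5-/- cells against 1.06 ± 0.169 CPM in WT cells. The 7 lymphoid markers summed to 0.0642 to 0.205 CPM in Alox5-/- and 0.0337 to 0.445 CPM in WT, and Cd3e and Ncr1 were at 0 throughout. Ly6a, Cd3e, Ncr1, C1qa and Elane were named after their values were seen. Of 9 myeloid markers 7 were tested: 5 were called lower, 1 higher and 1 was not called. Over all tested genes 27.0% were called lower and 26.8% higher, and the markers were not tested as a set. Mpo was 65.6 ± 7.76 CPM in Alox5-/- cells against 197 ± 13.4 CPM in WT cells (log2 change -1.59, edgeR adjusted p = 8.46e-11). Adgre1 and Itgam fell by 0.39 and 0.21 in log2, and Ly6g rose by 0.53. The 9 markers summed to 609 to 673 CPM in Alox5-/- and 802 to 901 CPM in WT, and C1qa had 1 count over all libraries. Most of each sum came from Elane and Mpo. Elane, called lower with overlapping groups, was 430 ± 24.4 CPM in Alox5-/- cells against 486 ± 48.5 CPM in WT cells. The part of these markers in the results below was not tested. Alox5-/- replicate 2 stood somewhat apart within its group (chi-square per degree of freedom 9.10 and 10.3, against 2.19 to 5.08 for the other pairs within a group), and the same 6 members were called without it.

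The background of the comparison was wide. Of 13705 tested genes, 53.8% were called at an edgeR quasi-likelihood adjusted p under 0.05, with 26.8% higher and 27.0% lower in Alox5-/-. Among the 9 members 6 were called, 2 higher and 4 lower, which in so few genes is near the share of all genes. With upper-quartile scaling 3 members were higher and 3 lower. For 6 of the 9 the values of Alox5-/- and WT libraries did not overlap, against 60.0% of all tested genes. The members' median log2 fold change was 0.02 and the median of its absolute size 0.14, against 0.00 and 0.19 over all tested genes, and 11.5% of all tested genes were called with a change of at least 1.5-fold. Because these were bulk samples, fewer cells that express a gene and less RNA per cell cannot be told apart.

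**Figure D1:**
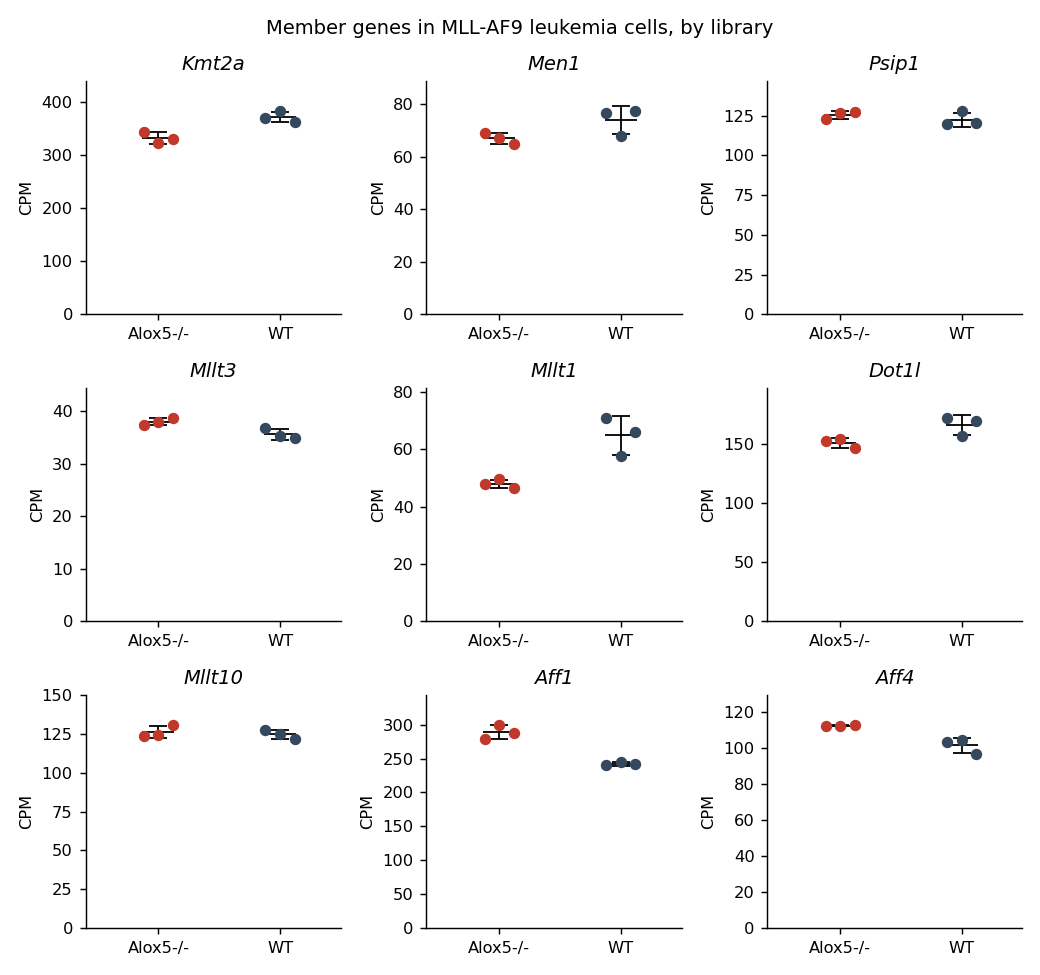
Level of each of the 9 members in CPM (vertical axis, from 0) in Alox5-/- and WT libraries; points are libraries, and bars are the mean and SD of 3. The points of the groups are separate for Kmt2a, Dot1l, Mllt1, Mllt3, Aff1 and Aff4, and WT replicate 2, the middle WT point, is the lowest WT library for Men1, Dot1l and Mllt1.

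Kmt2a, the gene whose amino-terminal part is in the fusion, was slightly lower in Alox5-/- cells. It stood at 344, 322 and 331 CPM in Alox5-/- replicates 1 to 3 and at 370, 382 and 362 CPM in WT replicates 1 to 3. The groups did not overlap, all Alox5-/- values being the lower ones. This is a log2 difference of -0.16 (SE 0.03; edgeR adjusted p = 0.00104), or 1.12-fold lower. Kmt2a (ENSMUSG00000002028) lies at 44803355 to 44881296 of chromosome 9, minus strand, in mm10, with 16670 annotated exon bases, of which 378 are shared with an antisense transcript, AC061963.1, not counted separately here. Reads from the retroviral MLL-AF9 that match mouse Kmt2a or Mllt3 could enter the counts of those genes, and endogenous and retroviral transcripts cannot be told apart in gene counts. The beginning of the coding sequence is shown because it encodes the motif by which both Kmt2a and the fusion hold menin; it lies at chr9:44881242-44881274 on the minus strand (RefSeq, GRCm38.p6), with the codons of the motif's core, from codon 6 on, in capitals.
Kmt2a coding start: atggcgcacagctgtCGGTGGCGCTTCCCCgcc

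Men1, which encodes menin, the adaptor bound at that motif, was lower by a similar amount and less firmly. Its libraries had 69.0, 67.0 and 65.0 CPM in Alox5-/- and 76.7, 68.0 and 77.3 CPM in WT. The groups overlapped, since WT replicate 2 lay below Alox5-/- replicate 1. The log2 fold change was -0.14 (SE 0.05; edgeR adjusted p = 0.0190). It no longer passed without Alox5-/- replicate 3 (adjusted p = 0.0874), WT replicate 1 (0.0855) or WT replicate 3 (0.0971), and with upper-quartile scaling (0.0533). Men1 lies at 6334979 to 6340891 of chromosome 19, plus strand.

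Psip1 encodes LEDGF, which binds methylated histone H3 lysine 36 and holds the menin and MLL pair on chromatin through its longer isoform p75. Its levels were 123, 127 and 127 CPM in Alox5-/- and 120, 128 and 120 CPM in WT. The groups overlapped. The log2 fold change of 0.03 had a 95% interval of -0.04 to 0.11 (edgeR adjusted p = 0.432). Gene counts hold the isoforms p75 and p52 together, and the exons of Psip1 share 483 bases with those of Snapc3 on the opposite strand, a gene with 3457 counts over the 6 libraries. Psip1 lies at 83455680 to 83486459 of chromosome 4, minus strand.

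Of the paralogs AF9 and ENL, both histone readers, ENL was called lower and AF9 was not called. Mllt3, which encodes AF9, had 37.3, 37.9 and 38.6 CPM in Alox5-/- and 36.8, 35.2 and 34.8 CPM in WT. The Alox5-/- libraries all lay above the WT libraries, by a margin that did not pass the test (log2 fold change 0.09, 95% interval -0.0042 to 0.19; edgeR adjusted p = 0.0989). With upper-quartile scaling, which moved the median of all genes by 0.03 on the log2 scale, it was called (log2 fold change 0.12, edgeR adjusted p = 0.0368). Mllt3 spans 87769925 to 88033364 on the minus strand of chromosome 4, with 12004 annotated exon bases. Its counts, like those of Kmt2a, may include retroviral reads.

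Mllt1, which encodes ENL, an acetyl-lysine reader on which acute myeloid leukemia cells are known to depend, had the greatest change of the 9. It had 47.9, 49.5 and 46.6 CPM in Alox5-/- and 70.8, 57.5 and 66.2 CPM in WT. The groups were separate, and the WT libraries were more spread than the Alox5-/- ones, with WT replicate 2 the lowest. The log2 fold change was -0.43 (SE 0.06; edgeR adjusted p = 2.54e-05). A larger absolute log2 fold change was found in 19.7% of all tested genes. For the other called members that share was 38.8% (Aff1), 56.5% (Kmt2a), 58.6% (Aff4), 59.9% (Men1) and 61.7% (Dot1l). Mllt1 was the only member called against a minimum change of 1.2-fold (glmTreat of edgeR, adjusted p = 0.0108), a test that called 17.9% of all tested genes. It lies at 56892611 to 56935415 of chromosome 17, minus strand.

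**Figure D2:**
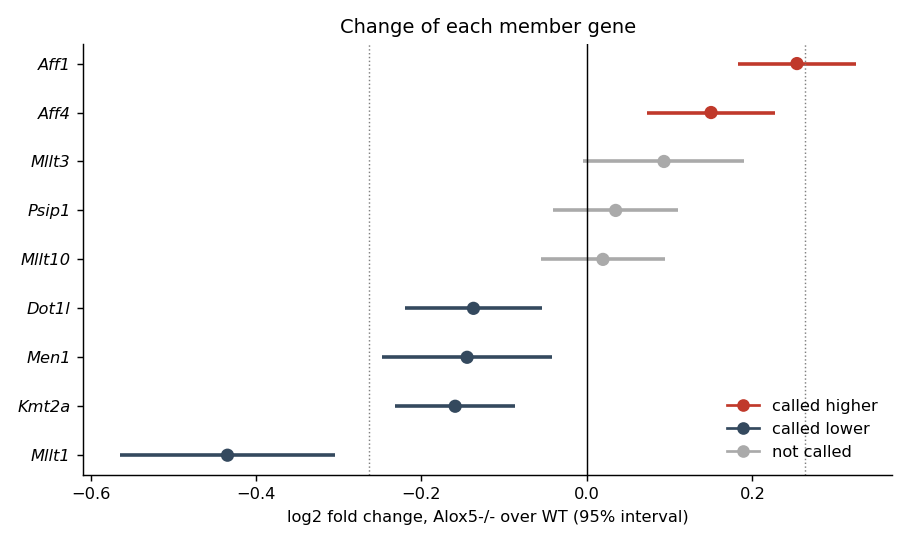
Log2 fold change of each member, Alox5-/- over WT (horizontal axis), with its 95% interval from the edgeR fit of 3 against 3 libraries; red, called higher, dark, called lower, grey, not called; dotted lines mark a change of 1.2-fold. The interval of Mllt1 alone lies wholly beyond a dotted line, and those of Psip1, Mllt3 and Mllt10 include 0.

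The balance between the paralogs was also read within each library, where library scaling plays no part. Retroviral reads that match Mllt3 could enter its ratio to Mllt1, so that ratio may not be one of endogenous transcripts. The ratio of Mllt3 to Mllt1, in counts per kilobase of exon, was 0.254, 0.250 and 0.271 in Alox5-/- and 0.170, 0.200 and 0.172 in WT. All Alox5-/- ratios were above all WT ratios, with means of 0.258 ± 0.0110 in Alox5-/- libraries and 0.180 ± 0.0168 in WT libraries (SD, n = 3 each; difference 0.52 on the log2 scale; exact two-sided permutation p = 0.1, adjusted p = 0.2 over 2 ratios). With 3 against 3 libraries 0.1 is the smallest p that this test can give. Every Alox5-/- library already lay above every WT library for Mllt3 and below every WT library for Mllt1. The separation of the ratios and this p were therefore fixed by those values and add no support to them. Without any single library the difference was 0.48 to 0.60 on the log2 scale.

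Of the lysine 79 pair, Dot1l was called and its cofactor was not. Dot1l, the histone H3 lysine 79 methyltransferase, had 153, 154 and 146 CPM in Alox5-/- and 172, 157 and 170 CPM in WT. The groups were separate, narrowly so between Alox5-/- replicate 2 and WT replicate 2. The log2 fold change was -0.14 (SE 0.04; edgeR adjusted p = 0.00775), and it no longer passed when Alox5-/- replicate 3 was left out (adjusted p = 0.0528). Mllt10, which encodes AF10 and raises DOT1L's output of higher methylation states, had 124, 125 and 131 CPM in Alox5-/- and 128, 125 and 122 CPM in WT. Its groups overlapped, and its log2 fold change of 0.02 had a 95% interval of -0.06 to 0.09 (edgeR adjusted p = 0.668). The difference between these 2 genes in their response was not tested. Dot1l lies at 80755206 to 80795461 of chromosome 10, plus strand, and Mllt10 at 18055237 to 18212388 of chromosome 2, plus strand, where its exons share 749 bases with Dnajc1 on the opposite strand (11157 counts over the 6 libraries).

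Both scaffolds of the super elongation complex were higher in Alox5-/- cells. Aff1, which encodes AF4, itself a frequent fusion partner of MLL in lymphoblastic leukemia, had 279, 299 and 288 CPM in Alox5-/- and 240, 245 and 241 CPM in WT. The groups were well separated, with little spread among the WT libraries. The log2 fold change was 0.25 (SE 0.03; edgeR adjusted p = 1.34e-05), or 1.19-fold higher. Aff4, which encodes the scaffold that holds P-TEFb and ELL proteins in most of these complexes, had 112, 112 and 113 CPM in Alox5-/- and 103, 104 and 96.7 CPM in WT. Its groups were separate too, at a log2 difference of 0.15 (SE 0.04; edgeR adjusted p = 0.00267). Neither was called against a minimum of 1.2-fold (adjusted p = 0.871 for Aff1 and 1 for Aff4).

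The ratio of Aff1 to Aff4 within a library, per kilobase of exon, was 3.53, 3.79 and 3.63 in Alox5-/- and 3.30, 3.35 and 3.55 in WT. These groups overlapped (difference 0.10 on the log2 scale; exact two-sided permutation p = 0.2, adjusted p = 0.2). Aff1 lies at 103692374 to 103855322 of chromosome 5, plus strand, and Aff4 at 53350833 to 53421830 of chromosome 11, plus strand.

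**Figure D3:**
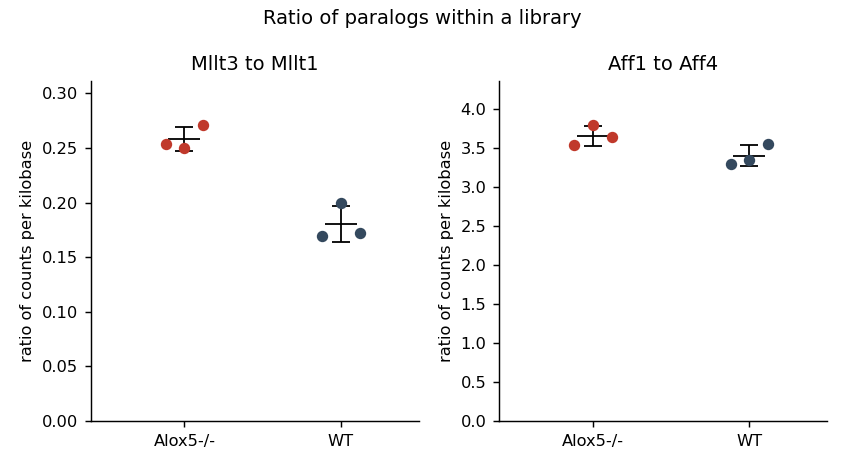
Ratio of Mllt3 to Mllt1 and of Aff1 to Aff4 in counts per kilobase of exon (vertical axes, from 0) in Alox5-/- and WT libraries; points are libraries, and bars are the mean and SD of 3. For Mllt3 to Mllt1 the Alox5-/- points, 0.250 to 0.271, all lie above the WT points, 0.170 to 0.200, while the groups overlap for Aff1 to Aff4.

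The promoters of the member with the greatest fall and of both scaffolds that rose are shown because Kmt2a itself binds DNA through a domain that recognises unmethylated CG pairs. The windows are 200 bases long and end 50 bases before the start site of the transcript listed at the top for each gene (RefSeq, GRCm38.p6). The Aff1 window lies inside the annotated gene, which begins at 103692374, so it belongs to an internal start site. Which start sites these cells use was not tested. They lie at chr17:56935439-56935638 on the minus strand for Mllt1, chr5:103753912-103754111 on the plus strand for Aff1 and chr11:53350517-53350716 on the plus strand for Aff4, and every CG is in capitals.
Mllt1: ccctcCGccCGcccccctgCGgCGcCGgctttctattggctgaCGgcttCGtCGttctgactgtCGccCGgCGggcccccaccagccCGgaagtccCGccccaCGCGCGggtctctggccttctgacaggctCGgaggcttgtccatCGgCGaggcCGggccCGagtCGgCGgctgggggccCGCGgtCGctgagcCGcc
Aff1: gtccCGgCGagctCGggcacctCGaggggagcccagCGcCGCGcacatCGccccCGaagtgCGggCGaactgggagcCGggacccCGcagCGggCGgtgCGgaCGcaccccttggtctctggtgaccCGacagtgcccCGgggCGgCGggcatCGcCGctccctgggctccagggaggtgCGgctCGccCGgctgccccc
Aff4: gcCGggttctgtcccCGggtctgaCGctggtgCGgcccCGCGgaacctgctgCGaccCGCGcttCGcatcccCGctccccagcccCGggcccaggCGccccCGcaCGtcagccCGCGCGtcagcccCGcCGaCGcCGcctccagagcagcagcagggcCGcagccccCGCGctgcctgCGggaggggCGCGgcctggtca

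CG was the only motif searched, and it reads the same on both strands. The Mllt1 window holds 27 CG, and 3.33% of such windows over 27025 coding and non-coding genes hold at least as many. The Aff1 window holds 26 (3.88% with at least as many) and the Aff4 window 28 (2.84%). The 27025 genes were not limited to those tested here, and the shares among tested genes were not computed. The other genes that fell ranged widely, with 34 CG in Dot1l, 25 in Kmt2a and 7 in Men1. Of the genes not called, Mllt3 had 14 and Mllt10 had 3. The Mllt10 window, at 18055478 to 18055677, lies inside its annotated gene, like that of Aff1, so these counts may not describe the start sites in use. Of the 9 members 8 had an entry, and Psip1 had none. A CG count describes the letters of a window and not its methylation or its binding.

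Scaled to exon length, the levels fell in much the same order in both genotypes. Aff1 was at the top with 30.5 ± 1.08 CPM per kilobase in Alox5-/- and 25.6 ± 0.303 in WT, and Psip1 followed with 24.7 ± 0.459 in Alox5-/- and 24.1 ± 0.868 in WT. Kmt2a and Mllt10 changed places: in Alox5-/- Mllt10 (21.4 ± 0.639) lay above Kmt2a (19.9 ± 0.663), and in WT Kmt2a (22.3 ± 0.598) lay above Mllt10 (21.1 ± 0.512), with no overlap between these genes within either genotype.

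Men1 and Dot1l came next and overlapped each other in both genotypes, at 17.5 ± 0.527 and 17.3 ± 0.476 CPM per kilobase in Alox5-/- and at 19.3 ± 1.35 and 19.1 ± 0.942 in WT. Mllt1 lay apart from Dot1l in Alox5-/- (12.3 ± 0.370) and overlapped it in WT (16.5 ± 1.73). Aff4 had 8.37 ± 0.0190 in Alox5-/- and 7.55 ± 0.310 in WT. Mllt3, the gene of the fusion's partner, was the lowest at 3.16 ± 0.0566 in Alox5-/- and 2.97 ± 0.0877 in WT, where retroviral reads may be included. These levels divide by all annotated exon bases of a gene, so a gene with long exons that these cells do not use is understated. The 9 genes summed to 1286 to 1294 CPM in Alox5-/- and 1290 to 1316 CPM in WT, which overlap.

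**Figure D4:**
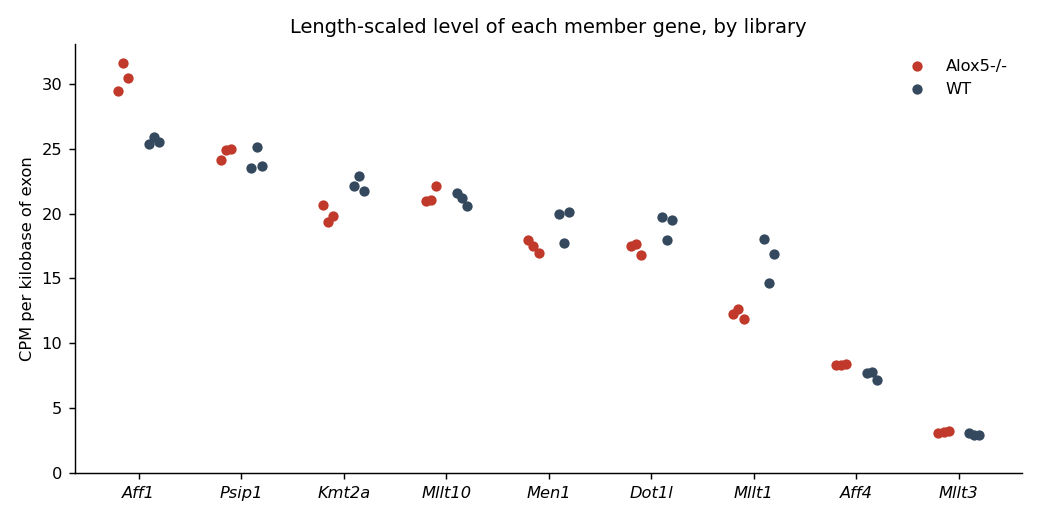
Length-scaled level of each member in CPM per kilobase of annotated exon (vertical axis, from 0), with members ordered by their WT mean; points are libraries, Alox5-/- left of WT for each gene. Kmt2a and Mllt10 stand in opposite order in the 2 genotypes, and Mllt3 is the lowest in both.

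The complexes around the members were read from lists of their other subunits and of proteins that act with or on them. Over all tested genes 26.8% were called higher and 27.0% lower, and no list was tested as a set. The list of COMPASS-type lysine 4 methyltransferase complexes, the family to which Kmt2a belongs, held 17 tested genes. Of these 10 fell, 1 rose and 6 did not pass (median log2 fold change -0.13). The 1 that rose was Tasp1, a protease that cleaves MLL and is not a subunit. Hcfc1, a host cell factor that joins these complexes to transcription factors, was 448 ± 5.10 CPM in Alox5-/- cells against 594 ± 17.2 CPM in WT cells (log2 change -0.41; edgeR adjusted p = 4.89e-08). Ash2l, a core subunit that Kmt2a needs for activity, was 235 ± 6.79 CPM in Alox5-/- cells against 302 ± 5.34 CPM in WT cells (log2 change -0.36; edgeR adjusted p = 2.95e-07). Kdm6a, the lysine 27 demethylase of the Kmt2c and Kmt2d complexes, and Paxip1, another subunit of those complexes, fell by 0.39 and 0.34 in log2.

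The other core subunits, named after their values were seen, varied. Dpy30 fell by 0.23 and Wdr5 by 0.10 in log2, and Rbbp5 had a log2 fold change of 0.07 that was not called (edgeR adjusted p = 0.115). Among the paralogs of Kmt2a, named in the same way, Kmt2b fell by 0.22 and Kmt2d by 0.13, and Kmt2c, at -0.07, was not called (edgeR adjusted p = 0.208). Tasp1, the protease that cleaves MLL into its mature form, also named after its values were seen, was the list's only gene that rose, by 0.17.

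In the list of super elongation complex and P-TEFb genes, without Aff1 and Aff4, 4 of 13 tested genes rose, 5 fell and 4 did not pass (median log2 fold change 0.01). Ell2, an elongation factor held by AFF scaffolds, was 77.2 ± 3.83 CPM in Alox5-/- cells against 56.5 ± 1.41 CPM in WT cells (log2 change 0.45; edgeR adjusted p = 4.84e-07). Aff2, another gene of the AF4 family, rose by 0.26. Larp7, which stabilises the 7SK RNA that holds P-TEFb inactive, was 54.8 ± 1.76 CPM in Alox5-/- cells against 75.0 ± 2.79 CPM in WT cells (log2 change -0.45; edgeR adjusted p = 3.17e-07). Hexim2, a P-TEFb inhibitor of the same particle, rose by 0.57 at a low level of 5.14 ± 0.286 CPM in Alox5-/- cells against 3.46 ± 0.485 CPM in WT cells.

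Hexim1, the related inhibitor, and Mepce, the capping enzyme of 7SK, fell by 0.21 and 0.15 in log2, and were named after their values were seen. Named likewise, Aff3, of the AF4 family, fell by 0.39 at 3.53 ± 0.149 CPM in Alox5-/- cells against 4.63 ± 0.300 CPM in WT cells. The P-TEFb kinase Cdk9, named in the same way, fell by 0.11 on the log2 scale, and its cyclins Ccnt1 (log2 fold change 0.01) and Ccnt2 (0.02) were not called (edgeR adjusted p = 0.849 and 0.704).

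Of the 6 genes of the PAF1 complex, an elongation complex that binds Kmt2a and MLL fusions, 5 fell, 0 rose and 1 did not pass (median log2 fold change -0.18). The share called lower over all tested genes was 27.0%, and so small a list was not tested as a set. Paf1 was 81.4 ± 2.92 CPM in Alox5-/- cells against 102 ± 1.60 CPM in WT cells (log2 change -0.32; edgeR adjusted p = 3.07e-06). Rtf1, Leo1, Wdr61 and Cdc73 fell by 0.23, 0.21, 0.14 and 0.13 in log2, while Ctr9, at 0.02, was not called (edgeR adjusted p = 0.711).

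Among 9 paralogs and chromatin partners of AF9, AF10 and LEDGF, 2 rose, 5 fell and 2 did not pass (median log2 fold change -0.09). Mllt6, which encodes AF17, the paralog of AF10, was 14.7 ± 0.184 CPM in Alox5-/- cells against 7.72 ± 0.387 CPM in WT cells, or 0.93 in log2 (SE 0.07; edgeR adjusted p = 4.18e-08). Bcor, a corepressor that binds AF9, fell by 0.32 on the log2 scale. Yeats4 and Yeats2, which carry the same reader domain as AF9 and ENL, fell by 0.22 and 0.09, and Hdgf and Hdgfrp2, relatives of LEDGF, by 0.13 and 0.17. Ing4 rose by 0.36, while Cbx8, a polycomb protein that binds AF9, had a log2 fold change of -0.01 and was not called (edgeR adjusted p = 0.941). Bcl6, with 62 counts over the 6 libraries, was not called either (log2 fold change 0.68, edgeR adjusted p = 0.250).

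**Figure D5:**
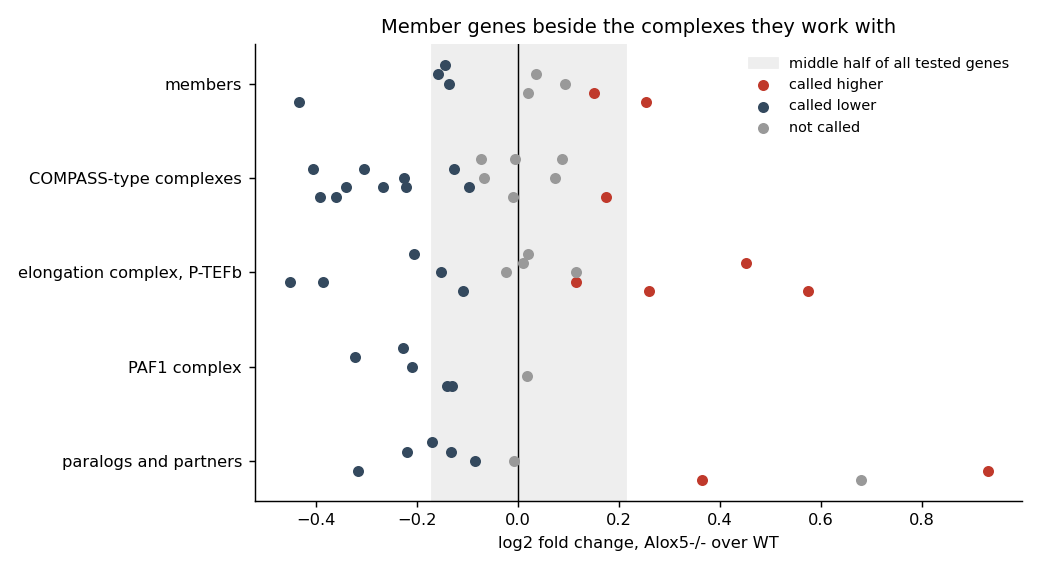
Log2 fold change, Alox5-/- over WT (horizontal axis), of the 9 members and of the tested genes of 4 lists of related complexes (rows); each point is a gene, red where called higher, dark where called lower and grey where not called, and the shaded band, -0.17 to 0.21, holds the tested genes between the lower and upper quartiles. All called genes of the PAF1 complex lie left of 0, and the rightmost point is Mllt6 at 0.93. No list was tested as a set.

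Other genes known as fusion partners of MLL in patients numbered 5 higher, 2 lower and 8 not called of 15 (median log2 fold change 0.01). Foxo4 and Foxo3, forkhead factors, rose by 0.35 and 0.18 in log2, and Sept9, a septin, fell by 0.16. Tet1, which oxidises methylated cytosine, was at 0.177 ± 0.0352 CPM in Alox5-/- cells against 0.821 ± 0.195 CPM in WT cells (log2 change -2.17; edgeR adjusted p = 7.00e-05), on 95 counts over the 6 libraries. Among the 13 tested genes known as targets of MLL fusions, 3 rose, 7 fell and 3 did not pass (median log2 fold change -0.22). Hoxa9, a homeobox factor that MLL fusions need, was 307 ± 16.1 CPM in Alox5-/- cells against 244 ± 7.89 CPM in WT cells (log2 change 0.33; edgeR adjusted p = 4.86e-06), whereas its neighbours Hoxa10 and Hoxa7 fell by 0.33 and 0.39. Eya1, a transcriptional co-activator, fell by 2.48 at a low level of 1.51 ± 0.251 CPM in Alox5-/- cells against 8.42 ± 0.243 CPM in WT cells. The 3 targets that did not pass were Meis1 (log2 fold change -0.01), Pbx3 (0.02) and Mef2c (-0.04). These 3 were named after their values were seen. These lists share the background of 53.8% called, with 26.8% higher and 27.0% lower, and no list was tested as a set.

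The genes whose pattern over the 6 libraries was most like that of Kmt2a were Rad51ap1, Rbl2, Prdx6, Nktr and Melk. They differed from it by a root mean square of 0.00825 to 0.0123 on the scale of centred log2 CPM, among 10210 genes averaging 5 CPM or more. For Mllt3 the closest were Zfhx2, Gpr107, Cry1, Ap1g2 and Ube2k, at 0.0114 to 0.0169. The 6 libraries form 2 groups, so the likeness is given as a description only.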

How the data were processed

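The authors deposited raw read counts per gene for 6 libraries, counted with HTSeq on mm10 per the submitters' processing notes, where DESeq2 is named too. The sources used here do not give the aligner, annotation release, versions or strand setting. Per the labels, poly-A RNA was amplified with the SMARTer kit. The 5 summary rows were left out of library sizes; non-unique reads were 24.4 to 24.8%, reads outside genes 9.10 to 10.2%, ambiguous reads 0.523 to 0.547% and unaligned reads 4.57 to 5.78% of all reads. Without a known strand setting, overlapping genes cannot be fully separated. A count of 0 allows 3 counts, or 0.0775 to 0.104 CPM, for counting error only.

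Differential expression was computed over all genes with edgeR 4.0.16 in R 4.3.3 (TMM, default expression filter, quasi-likelihood F-test, Benjamini-Hochberg adjustment, threshold 0.05), after tests on simulated data. SE values come from the coefficient and its F statistic. No 2 libraries agreed within sampling noise. Exon lengths and positions are from GENCODE M21 on the same build, which holds 98.95% of the gene identifiers; 27 symbols turned into dates were restored by identifier. Alternatives were DESeq2 1.42.0, limma-voom (limma 3.58.1), other scaling and filters, a robust fit, a 1.2-fold minimum, a replicate block and leaving out each library.

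The members and lists were chosen with earlier results of these data known. Genes named were the members, up to 4 called genes per list by smallest p, every gene of complexes with at most 10 tested genes, Alox5, and the 5 genes most like Kmt2a and Mllt3; others are said to be named after their values were seen. Of the other marker lists, the 5 stem and progenitor genes tested held 3 higher, 1 lower and 1 not called, the 3 stromal and endothelial genes 2 higher and 1 not called, and the 1 erythroid gene tested was not called. The shares over all tested genes were 26.8% higher and 27.0% lower.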

Additional observations from a re-analysis of the deposited data

Results flagged for a closer look

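The share of reads outside annotated genes, which no comparison above used, was higher in every Alox5-/- library than in any WT library. It averaged 9.76 ± 0.39% in Alox5-/- libraries against 9.24 ± 0.13% in WT libraries (SD, n = 3 each; exact two-sided permutation p = 0.1, the smallest that 3 against 3 allows). Its part in the members' values was not tested.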

How the results depend on the processing

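Against a minimum change of 1.2-fold the called genes numbered 2450 (1487 higher, 963 lower) in place of 7379 (3673 higher, 3706 lower), and the called members 1 (0 higher, 1 lower) in place of 6 (2 higher, 4 lower); that test asks for a larger change. Leaving out a library gave 6583 to 7251 called genes (3294 to 3575 higher, 3212 to 3678 lower) and 4 to 6 called members, 2 higher in each case and 2 to 4 lower, the lowest without Alox5-/- replicate 3, when Men1 and Dot1l were not called. Mllt10, not called, changed sign without Alox5-/- replicate 3 (-0.003) and without WT replicate 3 (-0.0008), and reached 0.0376 at most with a library left out; the cause was not tested. Under DESeq2, limma-voom, DESeq2 size factors, the other filters and the robust fit the same 6 members were called. With upper-quartile scaling 4076 genes were higher and 3201 lower, and 3 members were higher and 3 lower, since Mllt3 was called and Men1 was not. Libraries with the same replicate number did not deviate together (correlations -0.10, -0.26 and -0.11). Deviations centred within groups of 3 cannot show whether libraries of equal number were handled as pairs. With the replicate block 7029 genes and the same 6 members were called. The Mllt3 to Mllt1 and Aff1 to Aff4 differences were 0.48 to 0.60 and 0.08 to 0.14 with a library left out, and equal without length scaling, which cancels. The 95% intervals of the uncalled members were -0.04 to 0.11 for Psip1, -0.0042 to 0.19 for Mllt3 and -0.06 to 0.09 for Mllt10.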
